A study of Homo sapiens with 20 samples.

Results

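Interferon-stimulated genes were followed in LNCaP cells, a human prostate adenocarcinoma line, when the histone methyltransferase EHMT1 was silenced or induced. The members were the 48 genes of a list of interferon-stimulated genes, found by gene symbol among the 57773 gene rows of the count tables, and all 48 had a row. EHMT1 was silenced by transfection for 2 days with 20 nM of an siRNA pool (siEHMT1), against a nontarget pool (siNTC), with 2 samples in each group. EHMT1 was induced in 4 stable LNCaP-tet-EHMT1 lines, made by lentiviral infection with a doxycycline-inducible EHMT1 and puromycin selection, that carry wild-type EHMT1 (WT) or EHMT1 with a lysine changed to arginine (K450R or K451R) or both lysines changed (K450RK451R). These lines received vehicle (Veh, called untreated in the treatment label) or 0.25 µg/mL doxycycline (Dox) for 2 days, and each condition was deposited as 2 columns. All cells were grown in RPMI medium with serum. There is 1 line for each form of EHMT1 and no line without the transgene was treated with Dox among the samples used here, so the induced EHMT1, Dox itself and features of a line cannot be told apart.

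Interferon-stimulated genes are the genes that cells switch on when they detect viral nucleic acid or interferon. Cytosolic sensors such as RIG-I bind viral RNA and trigger production of type I interferon, which acts through the JAK1 and TYK2 kinases to form a complex, with STAT2 and IRF9 among its subunits, that binds the promoters of these genes. EHMT1 and its partner EHMT2 place the repressive H3K9me2 mark, and loss of repressive histone marks can release endogenous retroviral transcripts that feed the same sensors. The comparison therefore asks whether the members rose when EHMT1 was silenced, or fell when it was induced.

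Most of the promoters found for the members carry the core of the sequence that this complex reads. A few promoters are shown because the values below are those of their genes. RefSeq promoters of GRCh38.p14, each running from 250 bases before to 50 after a gene's start, were found for 40 of the 48 members. DHX58, IRF7, IFIT2, IFITM2, OAS2, OASL, TRIM22 and USP18 were without an entry. The core of the interferon-stimulated response element, spelled GAAA, any 2 bases and GAAA again and searched on both strands, was present in 27 of these 40 promoters (67.5%) and in 1016 of all 27305 promoters (3.72%). The letters TTC and GAA with any 3 bases between them, the core of a STAT-binding site, were present in 12 of the 40 (30%) and in 7.95% of all promoters. A match is a description of the letters and not evidence of binding. In the stretches that follow, written 5′ to 3′ on the strand of the gene, capitals mark the response element core or its reverse complement. For IRF1 they mark the STAT core, since its promoter held 0 matches of the response element core.
ISG15 (chr1:1013364-1013419, plus strand): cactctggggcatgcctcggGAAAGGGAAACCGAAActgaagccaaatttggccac
IFIT1 (chr10:89392487-89392549, plus strand): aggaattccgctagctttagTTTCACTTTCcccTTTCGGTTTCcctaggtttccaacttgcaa
IFITM3 (chr11:320866-320932, minus strand): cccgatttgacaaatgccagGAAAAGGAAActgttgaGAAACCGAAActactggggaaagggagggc
IFI6 (chr1:27672256-27672368, minus strand): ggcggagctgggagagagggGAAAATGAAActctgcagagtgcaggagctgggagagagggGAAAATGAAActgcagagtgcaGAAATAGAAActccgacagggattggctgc
IRF1 (chr5:132490869-132490917, minus strand): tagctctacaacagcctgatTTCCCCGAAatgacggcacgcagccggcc
ISG15 holds 2 matches that share the bases of the middle GAAA, IFIT1 and IFITM3 hold 2 each, and the IFI6 promoter holds 3, of which the first 2 lie in repeated copies of the same stretch.

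Library totals ran from 5593400 to 12438006 counts in the siRNA samples and from 8436791 to 12407739 in the line conditions. A gene with 3 counts, taken as the floor, was at 0.239 to 0.592 CPM in the siRNA samples and 0.232 to 0.369 CPM in the line conditions, where CPM are counts scaled to library size by TMM. The columns of a line condition differed only by counting noise, with a chi-square over its degrees of freedom between 0.995 and 1.02, and were summed and counted as 1 sample. The siRNA samples of a group differed by more than counting noise, and in siNTC replicate 2 a pair of pseudogenes that resemble ribosomal RNA held 10.0% of the counts, against 0.82% in siNTC replicate 1. Nothing in the labels says that the siRNA samples came from separate cultures, so their spread may be technical. The counts of EHMT1 were 929 and 423 under siNTC and 280 and 385 after silencing (log2 fold change −1.51, edgeR adjusted p = 1.48e-07). In the lines it was higher with Dox in all 4, with a log2 fold change of 3.23 and an edgeR adjusted p of 1.02e-23, and its row also counts the transgene. All 10 prostate epithelial markers passed the filter on low counts in both tables, among them KLK3, and the 6 immune cell markers summed to between 0.188 and 0.833 CPM in every library, with PTPRC at 0 counts in all of them. Of the 5 stromal and endothelial markers with a row, 3 passed, and PDGFRA was at 0 in all libraries.

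In the siNTC samples, which were transfected with the nontarget pool, the members covered a wide range of levels. Most of their summed level came from a few genes. Per kilobase of exon, B2M, the light chain of MHC class I, had the highest siNTC level at 62.8 CPM per kb, followed by ISG15, a ubiquitin-like protein that is conjugated to other proteins, at 52.3, the RNA-editing enzyme ADAR at 29.5 and the mitochondrial protein IFI6 at 21.2. Many classical interferon targets were near the floor. XAF1 had 0 counts in both siNTC samples, OAS2 had 0 and 1, and IFI44L had 1 and 0. Summed over the 48 members, the level was 1115 and 1096 CPM with siNTC and 1112 and 1130 CPM with siEHMT1. Without ADAR and B2M it was 545 and 552 CPM with siNTC and 566 and 593 CPM with siEHMT1. The siEHMT1 samples were therefore above the siNTC samples in the sum without those abundant genes and overlapped with them in the full sum. With 2 samples a group, 19.8% of all single genes tested also lay wholly above. The order of the sums was not tested and is not read as a rise.

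With EHMT1 silenced, no interferon-stimulated gene passed the test in either direction. Over all 14532 genes tested, 19 passed an adjusted p of 0.05, which is 0.131%, with 0.0619% higher and 0.0688% lower. Of the 48 members, 40 passed the filter on low counts, and 0 were called by edgeR, by DESeq2 or by limma-voom. At an unadjusted p under 0.05, 3 members were higher (DHX58, UBE2L6 and PARP9) and 1 was lower (IFITM3), where 4.46% of all genes were higher and 5.09% lower. The log2 fold change was above 0 for 24 of the 40 and below 0 for 16, against 49.6% of all genes above 0, and the median was 0.12 over the members and −0.0021 over all genes tested. The siEHMT1 samples lay wholly above the siNTC samples for 8 members and wholly below for 5, where 19.8% and 19.9% of all genes did so. The 5 stromal and endothelial markers with a row summed to 38.7 and 36.9 CPM with siNTC and to 45.3 and 45.9 CPM with siEHMT1. Among them, VWF averaged 8.46 CPM with siNTC and 15.8 CPM with siEHMT1. COL1A1 averaged 16.31 and 16.33 CPM, VIM 12.35 and 12.4 CPM and COL3A1 0.677 and 1.08 CPM, and PDGFRA was at 0. The higher sum was therefore mostly VWF and not shared by these markers, and their part in the member values was not tested. For 32 of the 40, the 95% interval of the log2 fold change lay within −1 and 1, so that a 2-fold change was outside the interval. The plot of all 40 estimates by role shows these intervals on either side of 0.

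**Figure D1:**
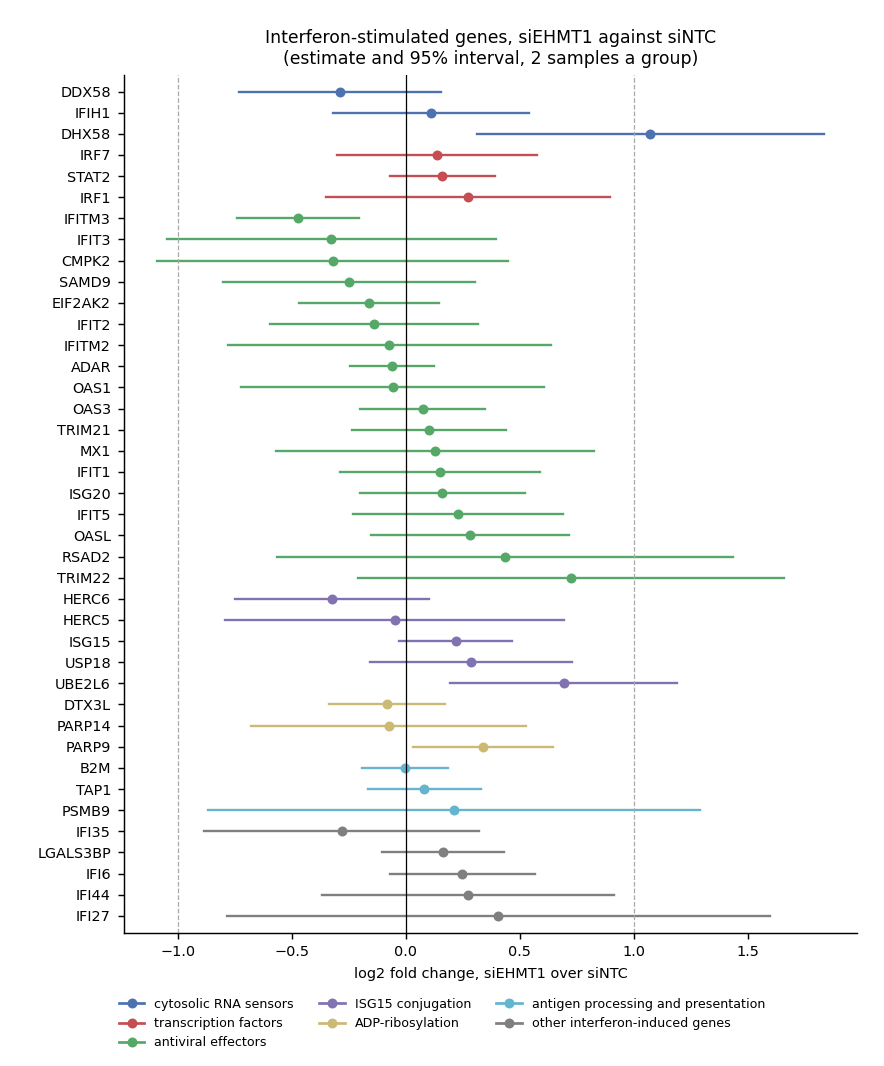
Log2 fold change of siEHMT1 over siNTC (x axis) for the 40 members tested, ordered by role and coloured by it; points are the estimates of edgeR's quasi-likelihood fit, bars their 95% intervals (2 samples a group), and dashed lines mark a 2-fold change. The intervals of DHX58, UBE2L6 and PARP9 lie above 0 and that of IFITM3 below 0, and none of these 4 genes passed an adjusted p of 0.05.

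The cytosolic RNA sensors did not move together. DHX58 (LGP2, ENSG00000108771, chr17:40253422-40264732 of GRCh37), which modulates the other RNA sensors, was at 1.70 and 1.97 CPM with siNTC and at 3.33 and 4.22 CPM with siEHMT1. Both siEHMT1 samples were above both siNTC samples, from 18 and 10 counts to 32 and 53. The log2 fold change was 1.07 (95% interval 0.31 to 1.83), the highest among the members tested, with an edgeR adjusted p of 0.319. Leaving out each sample in turn gave 0.88 to 1.22. DDX58 (RIG-I), which recognises viral RNA with a 5′ triphosphate, was at 10.4 and 11.1 CPM with siNTC and at 7.71 and 9.72 CPM with siEHMT1, so its samples lay in the opposite order. Its log2 fold change was −0.29 (95% interval −0.73 to 0.15, edgeR adjusted p = 0.698). IFIH1 (MDA5), the sensor of long RNA duplexes, overlapped between the groups, with a log2 fold change of 0.11 and an interval of −0.32 to 0.54.

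The transcription factors that carry the interferon signal were all slightly above 0 and none passed. STAT2, a subunit of the complex described above, was at 62.6 and 64.5 CPM with siNTC and at 64.4 and 77.6 CPM with siEHMT1, and the groups overlapped. Its log2 fold change was 0.16 (95% interval −0.067 to 0.39). IRF7, the factor that amplifies type I interferon transcription, was at 9.80 and 8.28 CPM and then 10.5 and 9.56 CPM, a log2 fold change of 0.14 (95% interval −0.30 to 0.58). IRF1, a factor induced by interferon-gamma, was counted 45 and 22 times under siNTC and 38 and 79 times under siEHMT1, which gave a log2 fold change of 0.27 (95% interval −0.35 to 0.90). The sign for IRF1 turned to −0.11 without siEHMT1 replicate 2. IRF9 was under the filter, with 8 and 2 counts against 14 and 12.

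Of the 23 antiviral effectors, 18 were tested, 9 above and 9 below 0, with a median log2 fold change of 0.0083. IFITM3 (ENSG00000142089, chr11:319676-329475 of GRCh37), a membrane protein that blocks virus entry, had the lowest log2 fold change of all members. It was at 36.4 and 36.9 CPM with siNTC and at 28.0 and 24.9 CPM with siEHMT1, so that both silenced samples were below both controls. The log2 fold change was −0.47 (95% interval −0.74 to −0.20, edgeR adjusted p = 0.188), and leaving out each sample in turn gave −0.56 to −0.38. IFITM3 is one of a family of similar genes whose reads could be split, and its relative IFITM2 had a log2 fold change of −0.071. Its promoter is among those printed above. The group of IFIT genes, which encode proteins that bind foreign RNA, did not share a direction. IFIT1 was at 9.24 and 8.88 CPM with siNTC and at 11.0 and 9.16 CPM with siEHMT1, which is a log2 fold change of 0.15, while IFIT3 stood at −0.33 and CMPK2, a mitochondrial nucleotide kinase, at −0.32. OASL, an OAS family protein that lacks the synthetase activity, had a log2 fold change of 0.28, and the dynamin-like antiviral GTPase MX1 had 0.13. The intervals of these 5 genes all included 0. ADAR, the most abundant effector per kilobase, averaged 361 ± 27.5 CPM in the controls and 346 ± 8.18 CPM after silencing (SD, n = 2 each), and its log2 fold change was −0.060 (95% interval −0.25 to 0.13).

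The ISG15 conjugation genes ranged from −0.32 to 0.69 on the log2 fold change scale. UBE2L6, the E2 enzyme that transfers ISG15, was at 6.88 and 5.13 CPM with siNTC and at 11.0 and 8.84 CPM with siEHMT1, with no overlap. Its log2 fold change was 0.69 (95% interval 0.20 to 1.19, edgeR adjusted p = 0.319), and 0.52 to 0.94 when each sample was left out in turn. ISG15 itself was at 49.2 and 41.4 CPM with siNTC and at 56.1 and 49.6 CPM with siEHMT1, so the groups were separated by less than 1 CPM. Its log2 fold change was 0.22 (95% interval −0.029 to 0.47). USP18, the protease that removes ISG15, had a log2 fold change of 0.29, whereas HERC5, the main ISG15 ligase of human cells, and its relative HERC6 were below 0 at −0.048 and −0.32. None of these intervals excluded 0 apart from that of UBE2L6.

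In the remaining roles, PARP9, an ADP-ribosyltransferase that pairs with the ubiquitin ligase DTX3L, was at 26.8 and 31.0 CPM with siNTC and at 30.6 and 42.1 CPM with siEHMT1. Its groups overlapped, and the log2 fold change was 0.34 (95% interval 0.030 to 0.65, edgeR adjusted p = 0.469). DTX3L, whose promoter it shares, had a log2 fold change of −0.081, and PARP14 had −0.075. Exons of PARP9 and DTX3L on opposite strands overlap by 139 bases. B2M averaged 196 ± 9.22 CPM in the controls and 195 ± 14.3 CPM after silencing (SD, n = 2 each), and its log2 fold change was −0.0027 (95% interval −0.19 to 0.19), and TAP1, a subunit of the peptide transporter, had 0.082. IFI6 was at 20.0 and 19.7 CPM and then at 26.0 and 21.2 CPM, a log2 fold change of 0.25 (95% interval −0.070 to 0.57), whereas IFI35 had −0.28. The 8 members under the filter held at most 14 counts in any siRNA sample. OAS2 went from 0 and 1 counts to 6 and 6, XAF1 from 0 and 0 to 2 and 2, BST2 from 1 and 1 to 0 and 7, PLSCR1 from 1 and 2 to 4 and 3, IFITM1 from 7 and 1 to 5 and 5, and PSMB8 from 8 and 4 to 10 and 6, while IFI44L had 1 and 0 in each group. These genes were not tested. For OAS2, XAF1 and IRF9 both siEHMT1 samples were above both siNTC samples in CPM, the other 5 overlapped and 0 were lower. XAF1 was under the floor of 3 counts in every sample. How many of all genes under the filter separate in this way was not computed, so these counts have no reference and are not read as a rise.

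In the Dox comparison, 1 interferon-stimulated gene, IRF1, was called lower and the other members tested were not called. The 4 lines served as replicates, with the line as a block. Of 14105 genes tested, 298 passed an adjusted p of 0.05, which is 2.11%, with 0.603% higher and 1.51% lower with Dox. Of the 48 members, 32 were tested, all of them also tested in the siRNA samples, and 0 were called higher and 1 lower. With 1 call, the members are not read as differing from these shares. At an unadjusted p under 0.05 there were 0 higher and 4 lower (IRF1, IRF7, PARP14 and ISG15), where 6.86% of all genes were higher and 7.55% lower. DESeq2 and limma-voom likewise called 0 members higher. The log2 fold change was above 0 for 14 members and below 0 for 18, against 48.8% of all genes below 0, with a median of −0.020 against 0.0050 over all genes tested. The log2 ratio was above 0 in all 4 lines for 3 members (IFITM3, USP18 and LGALS3BP) and below 0 in all 4 for 5 (IRF1, IRF7, PARP14, DDX58 and IFI35), where 10.7% and 10.1% of all genes did so. For 29 of the 32, the 95% interval lay within −1 and 1.

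**Figure D2:**
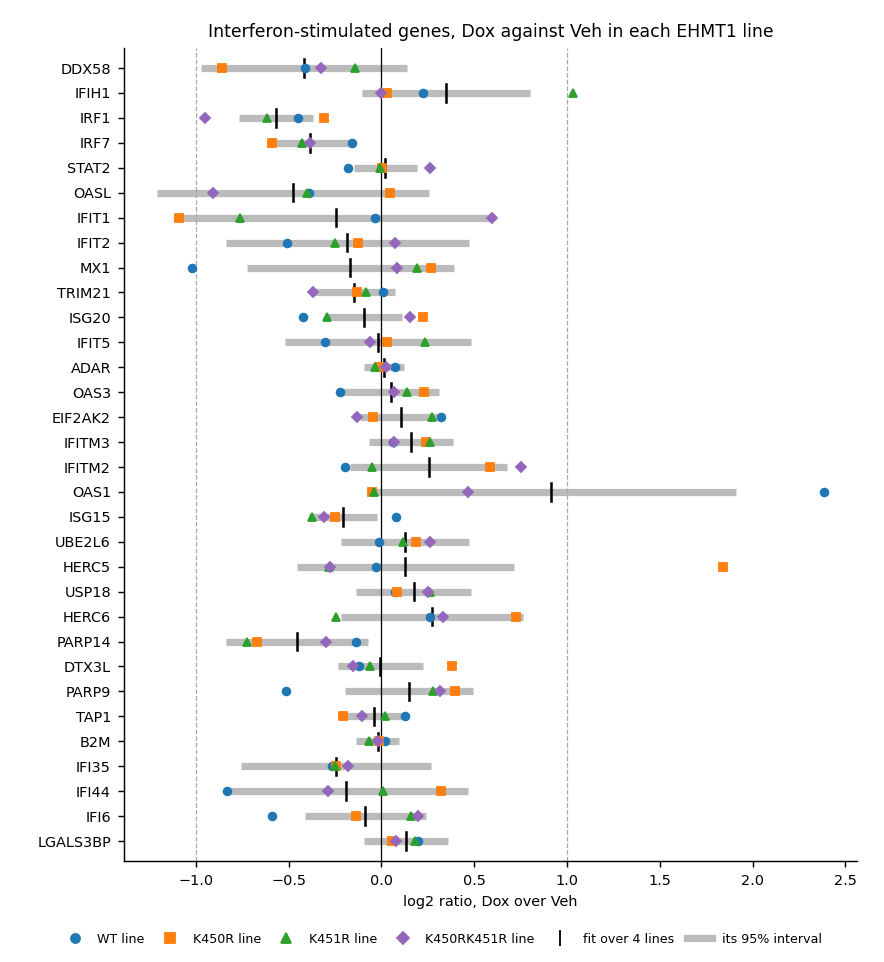
Log2 ratio of Dox over Veh (x axis) in each of the 4 lines for the 32 members tested in the lines, in the same order of roles; the black tick is the edgeR estimate over the 4 lines and the grey bar its 95% interval, and dashed lines mark a 2-fold change. All 4 lines lie below 0 for IRF1, whose interval runs from −0.77 to −0.37, while OAS1 in the WT line and HERC5 in the K450R line stand apart at 2.39 and 1.84.

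IRF1 (ENSG00000125347, chr5:131776132-131844411 of GRCh37) was at 61.9, 36.1, 30.4 and 30.8 CPM with Veh in the WT, K450R, K451R and K450RK451R lines. With Dox it was at 45.3, 29.1, 19.8 and 15.8 CPM in the same order. Every line was lower with Dox than with Veh, although the levels of the conditions overlapped between lines, since the WT line was above all others throughout. In that order, the log2 ratios were −0.45, −0.31, −0.61 and −0.95. Over the 4 lines the log2 fold change was −0.57 (SE 0.0974, 95% interval −0.77 to −0.37, edgeR adjusted p = 0.000876), a level at 67.5% of that with Veh. With each line left out, the edgeR adjusted p of IRF1 lay between 0.00115 and 0.00797. Without the line as a block it was 0.458, with a log2 fold change of −0.59. Exons of the antisense gene C5orf56, now IRF1-AS1, overlap those of IRF1 by 2805 bases on the opposite strand, and without a statement that counting used strand their reads cannot be told apart. C5orf56 had a log2 fold change of −0.34 with an interval of −0.86 to 0.19, with log2 ratios of −0.53, 0.90, −0.46 and −0.70 in the same order of lines.

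IRF7 (ENSG00000185507, chr11:612553-615983 of GRCh37) moved the same way without passing. It was at 24.4, 25.2, 19.3 and 18.5 CPM with Veh and at 21.8, 16.7, 14.3 and 14.1 CPM with Dox in the WT, K450R, K451R and K450RK451R lines. Every line was lower with Dox, by the least in WT. The log2 fold change was −0.38 (95% interval −0.62 to −0.15, edgeR adjusted p = 0.0731). Without the WT line it was −0.47 with an edgeR adjusted p of 0.0381. Calls over all genes also rose without that line, so the change of call is not particular to IRF7. STAT2, the third factor tested, was at 47.5, 49.5, 45.5 and 39.6 CPM with Veh and at 41.9, 49.5, 45.2 and 47.5 CPM with Dox, a log2 fold change of 0.021 (95% interval −0.15 to 0.19).

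PARP14, which modifies proteins with single ADP-ribose units, was at 9.18, 9.11, 8.85 and 5.57 CPM with Veh and at 8.32, 5.64, 5.28 and 4.48 CPM with Dox. It was lower with Dox in every line, with a log2 fold change of −0.46 (95% interval −0.84 to −0.075, edgeR adjusted p = 0.233). ISG15 was at 41.9, 40.4, 42.1 and 37.3 CPM with Veh and at 44.2, 34.0, 32.5 and 30.1 CPM with Dox. It was lower with Dox in the 3 lines with a changed lysine and higher in the WT line, and the log2 fold change was −0.21 (95% interval −0.39 to −0.027, edgeR adjusted p = 0.257). The counting intervals of its log2 ratio lay below 0 in those 3 lines and included 0 in WT. With 1 sample a condition, whether the lines differ could not be tested.

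**Figure D3:**
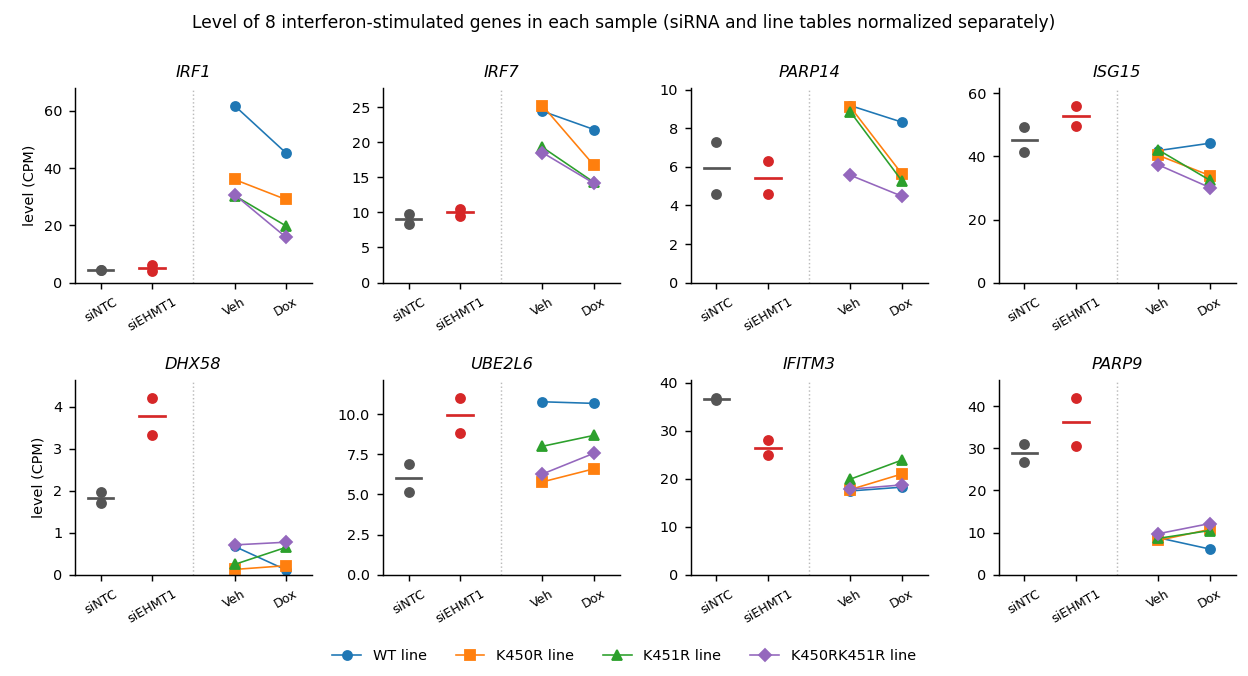
Level in CPM (y axis, from 0) of 8 members in every siRNA sample (points, with the group mean as a bar) and in Veh and Dox of each line (symbols joined per line); the siRNA and line values were normalized separately. IRF1, IRF7 and PARP14 were lower with Dox in all 4 lines, as were 10.1% of all genes, and IFITM3 was higher in all 4. DHX58, UBE2L6 and ISG15 were higher in both siEHMT1 samples than in both siNTC samples, as were 19.8% of all genes. IFITM3 was lower in both, as were 19.9%.

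The other genes named for silencing gave small values with Dox. IFITM3, whose log2 fold change was −0.47 with siEHMT1, was at 17.4, 17.7, 19.9 and 17.8 CPM with Veh and at 18.2, 21.0, 23.9 and 18.7 CPM with Dox. It was higher with Dox in every line, with a log2 fold change of 0.16 (95% interval −0.066 to 0.39, edgeR adjusted p = 0.553). UBE2L6 had 0.13 (95% interval −0.22 to 0.47), PARP9 0.15 (95% interval −0.20 to 0.49) and USP18 0.17 (95% interval −0.14 to 0.48). DHX58 could not be followed, since it held 1 to 10 counts in a line condition. Among the sensors, DDX58 was lower with Dox in every line, with a log2 fold change of −0.42 (95% interval −0.97 to 0.14), and IFIH1 had 0.35 (95% interval −0.11 to 0.80). ADAR and B2M, the most abundant members, had log2 fold changes of 0.012 (95% interval −0.096 to 0.12) and −0.020 (95% interval −0.14 to 0.095), which puts ADAR between 93.6% and 109% of its Veh level and B2M between 91.1% and 107%.

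Within single lines, with 1 sample a condition and no replicate check, single members varied in both directions around medians near 0. Their log2 ratios ran from −1.02 to 2.39 in WT, from −1.09 to 1.84 in K450R, from −0.76 to 1.03 in K451R and from −0.95 to 0.75 in K450RK451R. The median log2 ratio of the 32 members was −0.13, 0.015, −0.047 and 0.011 in the WT, K450R, K451R and K450RK451R lines, where the median over all genes lay between 0.00096 and 0.0086. In WT, 2 members were past 2-fold, OAS1 upward and MX1 downward, with 2.76% of all genes past it. In K450R they were HERC5 upward and IFIT1 downward, with 3.64% of all genes. In K451R it was IFIH1 upward, with 3% of all genes, and in K450RK451R 0 members passed, with 3.74% of all genes.

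These ratios rest on low counts. OAS1, an RNA-activated synthetase named here after its values were seen, went from 4 to 23 counts in the WT line, a log2 ratio of 2.39 with a 95% counting interval of 1.39 to 4.93. In the other lines it had 9 and 10, 9 and 13, and 5 and 10 counts. HERC5 went from 9 to 42 counts in the K450R line, a log2 ratio of 1.84 (95% counting interval 0.95 to 3.24), and its other lines stood between −0.28 and −0.032. Its Veh level in K450R, 1.11 CPM, was below the 3.45 to 4.49 CPM of the other Veh conditions, whereas its Dox level of 4.47 CPM lay within that range. MX1 went from 62 to 22 counts in WT, a log2 ratio of −1.02 (95% counting interval −1.85 to −0.36). MX1 shares 998 exon bases with genes on the opposite strand, among them TMPRSS2, an abundant prostate gene. IFIH1 went from 30 to 94 counts in K451R, a log2 ratio of 1.03 (95% counting interval 0.46 to 1.71), and had 66 and 58, 44 and 52, and 36 and 47 counts in the other lines.

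Other members named for a line kept to smaller ratios. PARP9 had a log2 ratio of −0.51 in WT and IFI6 one of −0.59 there, while both were above 0 in K451R and K450RK451R. In K450R, HERC6 had 0.73 and DDX58 −0.86, in K451R PARP14 had −0.73, and in K450RK451R IFITM2 had 0.75. IFI35 was below 0 in every line, between −0.27 and −0.18, with a log2 fold change over the lines of −0.24 (95% interval −0.75 to 0.27). OASL had −0.48 over the 4 lines (95% interval −1.21 to 0.26), and DTX3L had −0.0055 (95% interval −0.24 to 0.23). The 16 members that did not pass the filter in the lines held at most 17 counts in a condition. OAS2 and XAF1 had 0 counts in all 8 conditions, which allows up to 0.369 CPM in the shallowest, and the median over the 8 conditions was 8 counts for IFITM1, CMPK2 and TRIM22, 7 for PSMB9, 6 for IFI27, 5.5 for BST2 and PSMB8, 4.5 for DHX58 and IRF9, 3.5 for IFIT3, 2 for SAMD9, 1 for RSAD2 and PLSCR1 and 0 for IFI44L.

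In the main fits, the member median lay above that of all genes with siEHMT1 and below it with Dox, and neither difference was tested. With Dox, the member median ran from −0.0459 to 0.03 over the alternatives, so its sign was not stable. Within single lines it was above the median of all genes in K450R (0.015 and 0.0086) and K450RK451R (0.011 and 0.0022). Of the 32 members tested in both, 12 were above 0 with siEHMT1 and below 0 with Dox (37.5%, against 25.5% of 13617 genes tested in both), 7 were below 0 with siEHMT1 and above 0 with Dox (21.9% against 27.9%), 7 were above 0 in both and 6 below 0 in both. The 12 include IRF1, IRF7 and ISG15, of which IRF1 alone was called and in the Dox comparison alone. Splitting the members by promoter gave a median log2 fold change with siEHMT1 of 0.12 for the 22 tested members with the response element core and −0.058 for the 11 without it, and with Dox of −0.020 for 18 and 0.012 for 9.

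**Figure D4:**
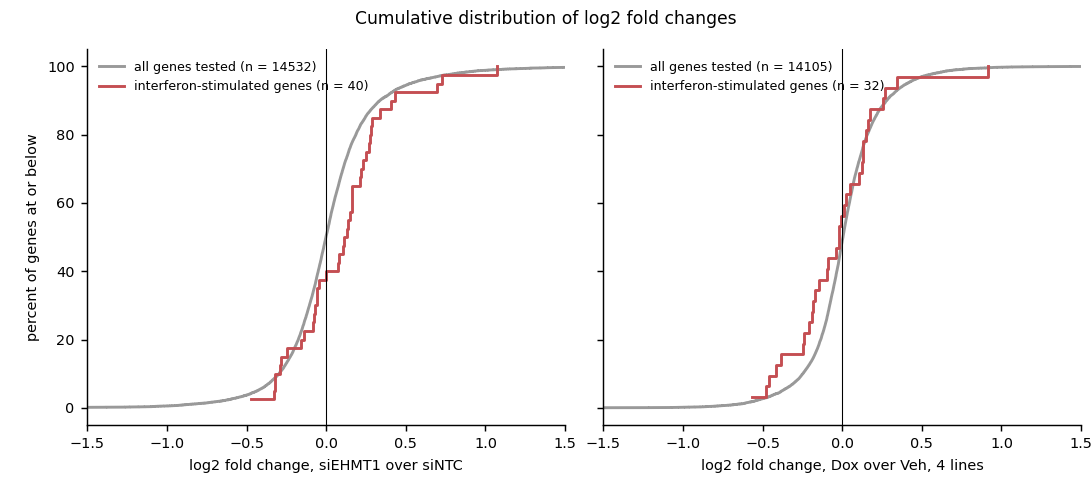
Cumulative percent of genes (y axis) at or below a log2 fold change (x axis) for siEHMT1 over siNTC (left) and Dox over Veh across 4 lines (right); grey, all genes tested; red, the members tested, 40 and 32. The red curve runs to the right of the grey over part of the left panel, where the medians are 0.12 and −0.0021, and crosses it on the right, where they are −0.020 and 0.0050.

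The genes around the members were taken from lists written for this purpose. Of 9 interferon ligand genes, 0 passed the filter in either table. IFNB1, which encodes interferon beta, had 0 counts in all 4 siRNA samples, and in the lines 3 counts in each of the K451R and K450RK451R Dox conditions and 0 elsewhere. With siEHMT1, 0 of the 75 tested genes of the other lists were called, and at an unadjusted p under 0.05 there were 7 higher and 1 lower, where 4.46% and 5.09% of all genes were. All 5 interferon receptors tested had intervals within −1 and 1 in both comparisons. IFNAR1 was higher with Dox in all 4 lines, a log2 fold change of 0.275 (interval 0.0425 to 0.507, edgeR adjusted p = 0.239). In the list of relay kinases and STAT factors, 3 were above 0 and 2 below with siEHMT1, and 2 and 4 with Dox, with 0 called. TYK2 was higher with siEHMT1 without overlap, at 0.315 (interval 0.0949 to 0.536, edgeR adjusted p = 0.309). JAK2 was higher with Dox in all 4 lines, at 0.406 (interval 0.0331 to 0.779, edgeR adjusted p = 0.291). JAK1, a kinase of type I, II and III interferon receptors, was thinly counted, with 38 and 20 reads in the siNTC samples, 33 and 86 in the siEHMT1 samples and 38 to 65 in the line conditions.

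Upstream of interferon, 9 of the 13 genes that relay nucleic acid sensing were tested in each table and 0 were called. TMEM173, which encodes the DNA sensing adaptor STING, went from 6 and 3 counts with siNTC to 16 and 21 with siEHMT1, with no overlap in CPM, a log2 fold change of 1.52 (95% interval 0.34 to 2.696, edgeR adjusted p = 0.370). The other 8 genes of this list had intervals that included 0 with siEHMT1. The DNA sensing genes IFI16 and AIM2 had 0 counts in all libraries. Of the 9 endogenous retroviral genes listed, 4 were tested in each table and 0 were called, with log2 fold changes of −0.33 to 0.43 with siEHMT1 and −0.25 to 0.77 with Dox. At an unadjusted p under 0.05, 1 of the 4 was higher and 0 lower with Dox, and 0 were either with siEHMT1. Repeat families themselves have no rows in the tables and were not analysed here. Downstream, the interferon-inducible chemokine CXCL10 was counted 5 and 6 times under siNTC and 12 and 16 times under siEHMT1, a log2 fold change of 0.80 (95% interval −0.46 to 2.05). Of the 14 MHC class I pathway genes tested with siEHMT1 and the 13 tested with Dox, 0 were called, and 12 of the 13 were below 0 with Dox, where 48.8% of all genes were. At an unadjusted p under 0.05, 4 of these 13 were lower with Dox (HLA-B, PSME2, ERAP1 and PSME1) and 0 higher, against 7.55% and 6.86% of all genes. With siEHMT1, 9 of the 14 were above 0 and 5 below, and at that threshold 1 was higher (PSME2) and 0 lower. A further 27 interferon-induced genes outside the member list gave 0 calls of 20 tested with siEHMT1 and 0 of 18 with Dox. At an unadjusted p under 0.05 with siEHMT1, 2 of the 20 were higher (GBP1 and GBP2) and 1 was lower (DDX60), against 4.46% and 5.09% of all genes. With Dox, 6 of the 18 were above 0 and 12 below, and at that threshold 0 were higher and 1 lower. DDX60 was at 8.48 and 8.09 CPM with siNTC and at 3.33 and 5.73 CPM with siEHMT1. Its log2 fold change was −0.85 (95% interval −1.42 to −0.28, edgeR adjusted p = 0.274). With Dox, 72 genes of the other lists were tested, and 4 were called higher and 0 lower, with 8 higher and 8 lower at an unadjusted p under 0.05 against the 6.86% and 7.55% of all genes. All 4 calls were among the 10 prostate epithelial markers, of which 7 had a log2 fold change above 0 and 3 below, and 5 were higher and 3 lower (KLK2, KRT8 and KRT18) at an unadjusted p under 0.05. Of the called markers, TMPRSS2 and HOXB13 had log2 fold changes of 0.22 and 0.19 and edgeR adjusted p of 0.0177 and 0.0492.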

How the data were processed

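RNA-seq was performed on 20 samples, 4 siRNA samples and 16 stable-line columns of 8 conditions. The authors used a stranded total RNA kit and single-end sequencing, and deposited raw counts of reads per Ensembl gene, without normalization. The submitters' processing notes name hg19 (GRCh37), FastQC 0.11.9, STAR 2.7.2 and featureCounts 1.6.4. The strand setting and annotation release are not given in the sources used here. Column names gave the sample of every column.

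The members and lists were chosen with earlier results of these data known. Low counts were removed with filterByExpr, TMM factors were computed, and genes were tested with the quasi-likelihood method of edgeR 4.0.16 in R 4.3.3, with Benjamini-Hochberg adjustment over all genes tested. The siRNA samples were fitted alone. The columns of each line condition were summed, and Dox was tested over the 4 lines with line as a block. Within a line, ratios are of TMM-scaled CPM with a prior count of 2, with an exact conditional binomial 95% interval. The intervals of the edgeR fits come from the quasi-likelihood statistic and include the spread between samples or lines. The binomial counting intervals and the floor of 3 counts cover counting error only, and reads carry no molecular identifiers. Positions and exon lengths come from GENCODE release 44 on GRCh37, in which 55538 of the 57773 rows were found.

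Named members are those called, the 5 highest and 5 lowest log2 fold changes of each fit (mean count of at least 20), the highest level per kilobase of exon in each role, the 3 largest ratios of each line (at least 40 counts) and those not tested. Alternatives were DESeq2 1.42.0, limma-voom (limma 3.58.1), upper-quartile normalization, other filters and thresholds, the legacy quasi-likelihood method, a replicate block, no line block, leaving out samples, columns, lines or 2 pseudogenes and, added after the data were examined, a loess GC correction (span 0.5). The procedures were tested on simulated counts, where DESeq2 recovered fewer of the changed genes than edgeR in both designs. Some genes of the other lists are not reported here.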

Additional observations from a re-analysis of the deposited data

Results flagged for a closer look

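For 3 of the 32 members examined, the Dox log2 ratio of 1 line lay far from those of the other 3 by Dixon's test for 4 values. Chance alone flags about 1 in 20 such groups. MX1 had a log2 ratio of −1.02 in the WT line against 0.083 to 0.27 in the others. HERC5 had 1.84 in the K450R line against −0.28 to −0.032. PARP9 had −0.51 in the WT line against 0.28 to 0.40. Each line is 1 sample a condition, so a line and a single library cannot be told apart. No member, 0 of 32, had the counting interval of its ratio wholly above 0 in 1 line and wholly below 0 in another.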

How the results depend on the processing

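Called members stayed at 0 with siEHMT1 under every alternative that kept the adjusted threshold; at an unadjusted p under 0.05 they were 3 higher and 1 lower. The fit with the replicate block gave 0 calls among members and 118 among all genes, a member median of 0.107 and an EHMT1 log2 fold change of −1.51. The deviations of same-numbered siRNA samples were nearly uncorrelated (Pearson −0.0052 and Spearman 0.030 across 14532 genes). Counting noise in thinly counted genes also lowers such a correlation, so it cannot decide whether the replicate numbers pair the samples. The member median with siEHMT1 was 0.144 with upper-quartile normalization and 0.069 to 0.112 with each sample left out. With Dox, calls that were lower numbered 4 at an unadjusted p under 0.05, 0 without the line block (4 calls among all genes, IRF1 at −0.59) and 1 to 2 with a line left out, IRF7 being added without the WT line (−0.47). Calls over all genes moved by more than 1.5 times with siEHMT1 from 19 to 12 with DESeq2 and without a filter and to 38 to 110 with a sample left out, where the lone sample of a group is assumed to vary like the other group, and with Dox from 298 to 140 with DESeq2 and to 114, 122 and 501 without the K451R, K450R and WT lines. Members past 2-fold in WT, K450R, K451R and K450RK451R numbered 4, 6, 4 and 4 at 1.5-fold and 6, 4, 5 and 2 without a filter, and 2 in K451R and 1 in K450RK451R with the 1 CPM filter. With only 1 column of each condition they ranged from 1 to 1 in WT, 1 to 2 in K450R, 0 to 1 in K451R and 0 to 1 in K450RK451R. The shares of all genes past 2-fold given earlier belong to the main setting and not to these alternatives. Without such shares, a larger number of members here is not read as a result about the members.

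Of 604 recomputed values of named genes, 569 kept their direction and side of the threshold. Those that turned sign were close to 0 or thinly counted. With siEHMT1 they were PARP14 (0.018 with limma-voom), B2M (0.020 with upper-quartile normalization, 0.0019 without a filter, 0.00083 without the pseudogenes and 0.060 with GC correction) and, with a sample left out, PARP14 (−0.41 to 0.25), B2M (−0.081 to 0.072), IFI35 (−0.69 to 0.027), IFITM2 (−0.26 to 0.13), ADAR (−0.14 to 0.019), IRF1 (−0.11 to 0.55), MX1 (−0.31 to 0.43) and HERC5 (−0.54 to 0.35). With Dox, DTX3L was 0.0019 with DESeq2, 0.0085 with upper-quartile normalization and 0.0011 with the legacy method, and with a column or line left out the ranges crossed 0 for STAT2 (−0.067 to 0.106), B2M (−0.057 to 0.019), IFI6 (−0.188 to 0.090), UBE2L6 (−0.046 to 0.316), DTX3L (−0.113 to 0.050), ADAR (−0.0076 to 0.028), MX1 (−0.331 to 0.185) and HERC5 (−0.216 to 0.309). The cause of these changes was not tested. Depth limits the 8 members under the filter with siEHMT1 and the 16 in the lines.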

Other observations

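The control cells of the siRNA experiment and the uninduced lines differed in how strongly they expressed these genes. The values come from separate tables that were normalized apart, and transfection, lentiviral selection and table cannot be told apart, so they are given with no test. Markers of cell types differed as well: the 10 prostate epithelial markers summed to 6486 and 6729 CPM in siNTC and 11820 to 12590 CPM in Veh, and the 5 stromal and endothelial markers to 38.7 and 36.9 CPM and 104 to 113 CPM, while the 6 immune markers summed to 0.188 and 0.592 CPM and 0.364 to 0.615 CPM. Their part in the values that follow was not tested. Of the 32 members tested in both tables, 11 were at least 2-fold higher in siNTC than in the mean of the 4 Veh conditions, where 13.1% of all genes were, and 3 were at least 2-fold lower, where 9.13% were. IFIT1 was at 9.06 CPM in siNTC and 1.39 CPM in Veh, IFIT2 at 9.21 and 2.08 CPM, OASL at 9.71 and 1.79 CPM, and DDX58 at 10.7 and 3.32 CPM. SAMD9, which was not tested in the lines, was at 8.24 CPM in siNTC and at 0.201 CPM, under the floor, in Veh. In the other direction, IRF1 was at 4.29 CPM in siNTC and 39.8 CPM in Veh, and IRF7 at 9.04 and 21.9 CPM.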
